A study of Mus musculus with 8 samples.

Results

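Chromatin remodelling and histone modifying genes were followed in a mouse Sertoli cell line exposed to bisphenol A (BPA). The members were all genes with a probe set annotated to a single symbol of the Arid, Smarc, Chd, Kmt, Kdm, Setd, Hdac or Kat series. Where several probe sets read a gene, the one with the greatest log2 signal, averaged over the arrays, stands for it. This gave 64 genes of the 12393 on the array: 25 remodellers (Arid, Smarc and Chd), 13 methyltransferases (Kmt and Setd), 13 demethylases (Kdm), 5 acetylases (Kat) and 8 deacetylases (Hdac). The symbol decides the class, and some members act on other substrates or as DNA- or RNA-binding proteins, as given below.

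TTE3 is a Sertoli line made from mice transgenic for the large T antigen of simian virus 40 in a temperature-sensitive form. All groups are of this 1 line: cells exposed to 0.2 mM BPA for 0, 3, 6 or 12 h, with 2 Affymetrix 430A arrays per time and 8 in all. BPA is a monomer of plastics and resins with weak estrogenic activity. No array of cells kept without BPA for 3, 6 or 12 h was analysed here, so BPA and time in culture cannot be told apart. Nothing in the labels ties the 2 arrays of a time to separate cultures. The spread that the p-values measure is that between these arrays and may be technical.

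Nucleosomes limit access to DNA, and remodellers use ATP to slide or evict them. The SWI/SNF complexes, named BAF and PBAF in mammals, are built around the ATPases encoded by Smarca4 and Smarca2, with ARID subunits that tell the complexes apart and a core of Smarcb1, Smarcc, Smarcd and Smarce1 products. Methyltransferases and demethylases add and remove methyl groups on histone lysines, and acetylases and deacetylases do the same for acetyl groups. In Sertoli cells such enzymes act on the genes that maintain cell identity.

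The deposited values are linear signals, 1 for each probe set on each array, which the authors had scaled to a common trimmed mean (500.2 on every array). Median signals were between 150.8 and 170.1, and the 2 arrays of a time correlated at 0.974 to 0.984 over the genes tested. Of 13 Sertoli markers on the array, 8 were above the filter on low signals, and Amh, Dhh, Fshr, Cldn11 and Dmrt1 were not. That filter was a mean log2(signal + 7.9) of 5.79, which a constant signal of about 47.6 gives. The summed signal of the 13 markers was 11916 to 12273 at 0 h and 8092 to 8831 at 12 h. Clu carried this fall, with a mean signal of 7651 at 0 h and 3409 at 12 h, and the other 12 markers summed to 4362 to 4525 at 0 h and 5003 to 5102 at 12 h. At 12 h Clu and Inhbb were called lower and Sox9, Gata4 and Krt18 higher (log2 changes of -1.17, -0.99, 1.55, 0.50 and 0.38). The part of these marker changes in the results below was not tested. Of 5 germ cell, 4 Leydig, 4 peritubular, 4 macrophage and 3 endothelial markers, 1, 1, 2, 3 and 0 were above the filter. Their summed signals on the 8 arrays ranged from 129.9 to 230.5 for germ cells, 345.4 to 551.7 for Leydig cells, 181.8 to 372.1 for peritubular cells, 504.4 to 627.9 for macrophages and 52.8 to 112.9 for endothelium. Fewer cells of a type and less RNA per cell cannot be told apart in such samples.

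Smarcc1 and Smarcd1, subunit genes of one complex, were both called lower at 6 and 12 h, and Smarcc1 alone of them at 3 h. Arid5a was the member that rose most. The promoters of Smarcc1, Smarcd1 and Arid5a are shown as the DNA next to these changes. Each is the stretch of 250 bases before the RefSeq start in GRCm38.p6, on the plus strand, at chr9:110131774-110132023, chr15:99702037-99702286 and chr1:36307483-36307732. Capitals mark matches, on either strand, to TGACGTCA (cAMP response element), TGANTCA (AP-1), TGATGNAA (C/EBP-ATF response element), CACGTG (E-box), GGGCGG (GC box) or CCAAT.
Smarcc1: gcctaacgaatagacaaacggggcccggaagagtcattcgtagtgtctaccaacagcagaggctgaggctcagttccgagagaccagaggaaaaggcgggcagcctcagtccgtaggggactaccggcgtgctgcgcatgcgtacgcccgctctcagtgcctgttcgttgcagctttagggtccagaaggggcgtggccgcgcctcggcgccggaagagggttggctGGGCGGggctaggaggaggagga
Smarcd1: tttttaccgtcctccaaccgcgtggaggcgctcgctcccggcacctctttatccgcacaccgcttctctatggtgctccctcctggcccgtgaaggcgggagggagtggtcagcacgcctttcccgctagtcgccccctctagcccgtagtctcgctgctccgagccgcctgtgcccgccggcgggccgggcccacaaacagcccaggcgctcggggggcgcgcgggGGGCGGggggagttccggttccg
Arid5a: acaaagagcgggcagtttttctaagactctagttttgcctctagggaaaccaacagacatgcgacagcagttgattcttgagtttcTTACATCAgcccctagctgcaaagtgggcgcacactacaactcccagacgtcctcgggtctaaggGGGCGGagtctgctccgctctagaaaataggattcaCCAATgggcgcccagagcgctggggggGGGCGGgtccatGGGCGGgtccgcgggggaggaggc
The Smarcc1 and Smarcd1 windows each held 1 GC box and no match to the other motifs. The Arid5a window held 3 GC boxes, 1 CCAAT box and 1 match to TGATGNAA, the element that ATF4 and C/EBP proteins can bind. Of the 64 members, 52 had windows in the RefSeq table, 72 in all because some genes have several starts. A GC box lay in 63.9% of these windows and in 32.7% of 32851 windows of all genes in that table. These background windows were not limited to genes on the array or to genes tested. For CCAAT the shares were 37.5% and 33.8%, for TGANTCA 6.94% and 6.75%, for TGATGNAA 4.17% and 3.45%, for CACGTG 2.78% and 6.02%, and for TGACGTCA 0 of 72 windows and 1.55%. The median member window held 19 CpG dinucleotides against 6 over all windows, and the median GC content was 61.2% against 52.4%. The motifs can overlap one another by a few bases, and a match describes these letters only.

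The chromatin genes did not move as one body. Called changes, those with a Benjamini-Hochberg adjusted p under 0.05 in limma over all 8675 genes tested, were found in 7 of the 58 members tested at 3 h, 12 at 6 h and 21 at 12 h. These are 12.1%, 20.7% and 36.2% of the members tested, beside 12.1%, 26.5% and 38.4% of all genes tested. By the F test over the 3 times, 22 of 58 (37.9%) were called, beside 35.8% of all genes. The share of chromatin genes called was thus near or below that of all genes. The other 6 members (Arid3b, Chd7, Smarca1, Hdac9, Kmt2d and Setd7) were below the filter, with signals from 2.5 to 116.2, and were not tested. Kdm6b, Kat5 and Setd2 were to be described whatever their result, but had no probe set with 1 symbol and were not analysed here.

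More members rose than fell at 3 and 6 h, and more fell than rose at 12 h; with the arrays scaled to one median, rises did not outnumber falls at 3 or 6 h. At 3 h 5 members rose (8.55% of all genes did) and 2 fell (3.53% of all genes). At 6 h 7 rose and 5 fell, beside 16.8% and 9.73% of all genes. At 12 h 8 rose and 13 fell, beside 20.9% and 17.5% of all genes. The median log2 change of the tested members was 0.11, 0.06 and -0.06 at 3, 6 and 12 h, against 0.06, 0.07 and 0.06 for all genes. Scaling the arrays to one median moved the median change of all genes at 3 h from 0.06 to -0.07 and at 6 h from 0.07 to -0.04. With it the split of the members was 4 higher and 4 lower at 3 h and to 4 and 5 at 6 h, and at 12 h the split was 7 and 13. Over all genes that scaling gave 462 higher and 645 lower at 3 h and 1054 and 1199 at 6 h, in place of 742 and 306 and of 1455 and 844. The count at 3 h was 3 without replicate 1 of 0 h or of 3 h and 2 without replicate 2 of 3 h, and the count at 6 h was 6 without either 0 h array.

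Many members had treated arrays that did not overlap with the 0 h arrays, as many genes did. At 3 h 23 of 58 members were higher and 13 lower on both arrays, beside 34.7% and 23.3% of all genes. At 6 h 19 were higher and 18 lower, beside 36.6% and 25.4%, and at 12 h 20 were higher and 24 lower, beside 38.6% and 30.9%. From 3 to 6 h 5 were higher and 18 lower, beside 22.9% and 20% of all genes, and from 6 to 12 h 9 were higher and 21 lower, beside 20.9% and 26.7%. These counts carry no test.

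**Figure D1:**
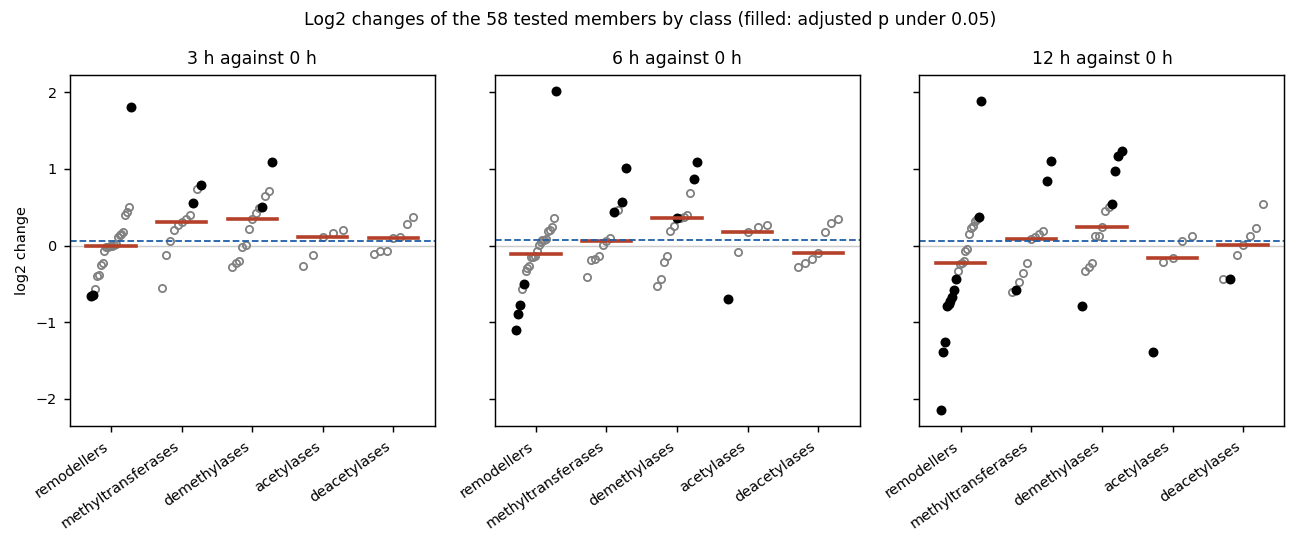
Log2 change of each of the 58 tested members (y axis) by class (x axis) at 3, 6 and 12 h against 0 h. Filled points passed adjusted p under 0.05, open points did not, red bars are class medians and the dashed line is the median of all genes. At 12 h the remodellers reach from -2.15 (Arid2) to 1.89 (Arid5a) with a median of -0.23, and the demethylase median is at 0.24.

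Between consecutive times, no member was called from 3 to 6 h and 6 of 58 were called lower from 6 to 12 h. Against 3 h no member was called at 6 h by limma, where 2 were higher and 7 lower at an unadjusted p under 0.05 and 1.12% of all genes were called (0.565% higher and 0.553% lower). Against 6 h, 6 members fell and none rose at 12 h (3 higher and 13 lower unadjusted), beside 4.77% of all genes called, 3.85% lower and 0.922% higher. The median step of the members from 6 to 12 h was -0.09, with 22 of 58 above 0. With the arrays scaled to one median it was 0.01, 3 members fell and none rose, and the split of all genes was 184 higher and 199 lower in place of 80 and 334. The 6 were Arid2, Arid1a, Smarcad1, Smarcc1, Kat2b and Kmt2e. Of these steps, that of Arid2 passed under each alternative run, and the step of Smarcc1 was lost without any 1 of 5 arrays (both 0 h arrays, replicate 1 at 6 h and both 12 h arrays; adjusted p from 0.0713 to 0.141). The step of Arid1a (-0.58) was lost without either 12 h array or replicate 1 of 6 h. That of Smarcad1 (-0.61) was lost without either 0 h array, replicate 2 at 6 h or replicate 1 at 12 h. With all arrays kept, the steps of Arid1a, Smarcad1 and Smarcc1 were lost with arrays scaled to one median (limma adjusted p = 0.0548, 0.0631 and 0.0896). They were also lost with only the groups compared (0.0709, 0.0833 and 0.115). Without the intensity trend only the step of Arid2 was called. With the mean of all probe sets those of Smarcad1, Smarcc1 and Kat2b were lost (0.44, 0.342 and 0.0626). Quantile normalization lost that of Smarcc1 (0.0589).

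Remodellers held 11 of the 21 members called at 12 h: 2 rose and 9 fell among 22 tested. At 3 h 1 rose and 2 fell, and at 6 h 1 rose and 4 fell. The rises were those of Arid5a, in this class by its symbol, at 3, 6 and 12 h and of Smarce1 at 12 h. Of all genes 20.9% rose and 17.5% fell at 12 h, 8.55% and 3.53% at 3 h, and 16.8% and 9.73% at 6 h. The class median was 0.00 at 3 h, -0.11 at 6 h and -0.23 at 12 h, against 0.06, 0.07 and 0.06 for all genes. At 12 h 6 of the 9 falls were in SWI/SNF subunit genes, and 9 remodellers fell under both other scalings too. With the mean of all probe sets, however, the falls of Smarcad1, Chd4, Smarcd1 and Smarcd2 were not called (limma adjusted p from 0.091 to 0.826). Arid4b turned to 0.15 with that mean, and the falls of Arid1a, Arid2, Smarca4 and Smarcc1 kept their calls.

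Arid2 encodes the ARID subunit that distinguishes the PBAF complex. Its signals were 1531.9 and 1623.5 at 0 h, 1038.5 and 955.1 at 3 h, 752.7 and 709.8 at 6 h, and 385.7 and 315 at 12 h. Each pair of arrays lay below both arrays of the time before, with no overlap. Arid2 fell by 0.66 ± 0.13 at 3 h (log2, SE, n = 2 per time; limma adjusted p = 0.00563), by 1.10 ± 0.13 at 6 h (5.67e-05) and by 2.15 ± 0.13 at 12 h (8.51e-08). The 3 h call was lost without replicate 2 at 0 h (adjusted p = 0.0675) or at 3 h (0.0569), with falls of 0.62 and 0.60. The step from 6 to 12 h was -1.05 ± 0.13 (adjusted p = 0.0011).

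Smarcc1 encodes the scaffold subunit BAF155 of BAF and PBAF. It read 1407.7 and 1420.7 at 0 h, 853 and 956.6 at 3 h, 794.8 and 722.7 at 6 h, and 533.9 and 536 at 12 h. The groups at the 4 times do not overlap. Smarcc1 fell by 0.64 ± 0.12 at 3 h (limma adjusted p = 0.00375), 0.89 ± 0.12 at 6 h (0.00016) and 1.39 ± 0.12 at 12 h (2.21e-06). Without replicate 1 at 3 h the 3 h fall was 0.56 (adjusted p = 0.0521). Its second probe set changed by -0.80 at 12 h.

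Smarcd1 encodes BAF60a, a core subunit that links the complex to transcription factors. Its signals were 205.2 and 272.3 at 0 h, 186.2 and 132.9 at 3 h, 126 and 144.7 at 6 h, and 94.1 and 94.3 at 12 h. All 6 treated arrays were below both 0 h arrays. The change at 3 h was -0.56 ± 0.25 and was not called (limma adjusted p = 0.17). The fall was 0.77 ± 0.25 at 6 h (0.0348), a call lost without any 1 of the 0 h and 6 h arrays (0.0561 to 0.265), and 1.26 ± 0.25 at 12 h (0.00138). A second probe set, with a mean signal of 21.6, was below the filter, and the mean over both gave -0.34 at 12 h (adjusted p = 0.491).

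Smarca4, the gene of the BRG1 ATPase, and Arid1a, whose product defines canonical BAF, were called lower at 12 h. Smarca4 read 1711 and 1946.8 at 0 h, 1350 and 1425.1 at 3 h, 1554 and 1418.8 at 6 h, and 869.4 and 1275.7 at 12 h. The 12 h arrays were apart from each other but both below every earlier array, and the change of -0.79 ± 0.16 was called (limma adjusted p = 0.00146). The arrays at 3 and 6 h were also below both 0 h arrays, with changes of -0.39 and -0.30 that were not called. Its second probe set read 568.6 and 594.2 at 0 h and changed by -0.82 at 3 h, -0.92 at 6 h and -1.01 at 12 h, most of it by 3 h. Arid1a read 1102 and 1041.2 at 0 h, 1032.9 and 1081.7 at 3 h, 1064.4 and 886.6 at 6 h, and 632 and 660.8 at 12 h. Its groups overlapped up to 6 h, and at 12 h it had fallen by 0.72 ± 0.13 (limma adjusted p = 0.00053). Its second probe set changed by -0.22, -0.44 and -0.86 at 3, 6 and 12 h.

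The remaining SWI/SNF members differed in direction. Smarcb1 read 1440.6 and 1377.5 at 0 h and 1899.3 and 1680.7 at 12 h, a change of 0.34 ± 0.13 that missed the threshold (limma adjusted p = 0.0508). It passed under 6 alternatives (adjusted p from 0.0193 to 0.0497). Smarce1, the gene of BAF57, rose by 0.37 ± 0.13 at 12 h (adjusted p = 0.0389), from 2210.7 and 2089.6 to 3009.3 and 2571.9. That call was lost without either 0 h array or replicate 1 at 12 h (0.0997 to 0.248), and its second probe set gave -0.16. Smarcd2 was called lower at 12 h (-0.43 ± 0.16, adjusted p = 0.0463), but not without any 1 of the 0 h, 3 h or 12 h arrays (0.0586 to 0.22). The Smarcd2 call was also lost with no filter (limma adjusted p = 0.0709) and without the intensity trend (0.122). The other probe sets of Smarcd2 changed by 0.49 and -0.23 at 12 h. Smarcd3 and Smarca2, the gene of the BRM ATPase, had changes of -0.24 ± 0.15 and 0.16 ± 0.21 at 12 h that did not pass.

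Of these 10 SWI/SNF members, 6 fell and 1 rose at 12 h, at a median of -0.58. With the arrays scaled to one median and after quantile normalization 6 also fell. With the mean of all probe sets, Smarcd1 (-0.34, limma adjusted p = 0.491), Smarcd2 (-0.06, 0.826) and Smarce1 (0.11, 0.558) were not called. The falls of Arid1a, Arid2, Smarca4 and Smarcc1 were still called with that mean. Among 8 tested accessory subunits, which come from a wider list of chromatin genes and are not members, 3 rose and 1 fell, at a median of 0.30 (2 rose under either other scaling). Of all genes 20.9% rose and 17.5% fell at 12 h. The grouping into members and accessory subunits was made after the values were seen. Bcl7b, a small BAF subunit gene, rose by 0.90 ± 0.14 at 3 h, 1.12 ± 0.14 at 6 h and 1.0 ± 0.14 at 12 h (limma adjusted p = 0.000907, 8.16e-05 and 0.000104). Dpf2, a histone-reading subunit gene, rose by 0.78 ± 0.13 at 6 h and 0.93 ± 0.13 at 12 h. Ss18 rose by 0.34 ± 0.13 at 12 h (adjusted p = 0.0471), a call lost without either 0 h array or replicate 1 at 12 h (0.101 to 0.272). Pbrm1, a PBAF subunit gene like Arid2, fell by 0.82 ± 0.22 at 6 h and 0.73 ± 0.22 at 12 h. Both of its calls were lost without replicate 2 at 0 h and without replicate 1 of the treated time (0.112 to 0.178).

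**Figure D2:**
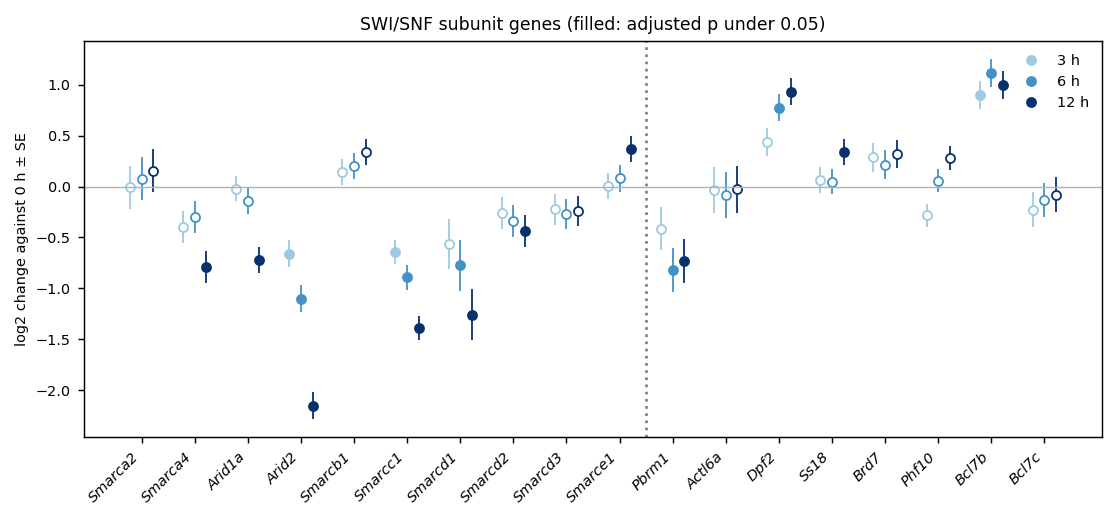
Log2 change against 0 h with its SE (y axis) of the 18 tested SWI/SNF subunit genes (x axis) at 3, 6 and 12 h (light to dark). Filled points passed adjusted p under 0.05, and the dotted line parts the 10 members from the 8 accessory subunits. The plotted values of Arid2, Smarcc1 and Smarcd1 are lower at each later time, while Bcl7b and Dpf2 lie above 0. Smarcd1 had no called step between consecutive times.

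Outside SWI/SNF, Arid5a was the member that rose most. Its product binds RNA and stabilizes transcripts of inflammatory genes such as Il6. Arid5a read 161.4 and 221.8 at 0 h, 711.5 and 652.4 at 3 h, 865.9 and 728.1 at 6 h, and 761.3 and 683.2 at 12 h. All 6 treated arrays were above both 0 h arrays, with little change after 3 h. The rises were 1.81 ± 0.17, 2.02 ± 0.17 and 1.89 ± 0.17 (limma adjusted p = 8.53e-06, 1.76e-06 and 2.33e-06), and they passed under each alternative run. Its paralog Arid5b had changes of 0.50 ± 0.17 at 3 h and -0.34 ± 0.17 at 12 h, neither of which was called, although it was called by the F test (adjusted p = 0.00765). Its other probe set changed by 1.23, 0.97 and 0.63 at 3, 6 and 12 h, opposite in direction at 12 h.

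Chd4, the ATPase gene of the NuRD corepressor complex, read 620.9 and 585.8 at 0 h, 671.1 and 541.8 at 3 h, 467.5 and 380.8 at 6 h, and 396.9 and 405 at 12 h. The arrays at 6 and 12 h were below all 4 earlier arrays. Chd4 fell by 0.51 ± 0.15 at 6 h (limma adjusted p = 0.0261) and by 0.58 ± 0.15 at 12 h (0.00891). The 6 h call was lost without either 0 h array or replicate 2 at 6 h (0.0889 to 0.154) and the 12 h call without replicate 1 at 0 h (0.0669). Smarcad1, a remodeller of heterochromatin and of DNA ends at breaks, fell by 0.76 ± 0.14 at 12 h (adjusted p = 0.000891), but its other probe set changed by 0.18. Arid4b, a subunit of SIN3 corepressors, was called lower at 12 h (-0.68 ± 0.25, adjusted p = 0.0494) although its arrays overlapped, at 327 and 575.8 at 0 h against 211.1 and 341.4. It was not called when replicate 2 of 0 h (-0.28), replicate 1 of 12 h (-0.34) or either 3 h array (-0.68, adjusted p = 0.0585 and 0.0583) was left out. The other 4 probe sets of Arid4b changed by -0.07, 0.12, 0.82 and 0.57.

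Of the histone methyltransferase class, 11 of 13 were tested: 2 rose and none fell at 3 h, 3 rose and none fell at 6 h, and 2 rose and 1 fell at 12 h. The shares of all genes that rose and fell were 8.55% and 3.53% at 3 h, 16.8% and 9.73% at 6 h, and 20.9% and 17.5% at 12 h. No fall at 3 or 6 h reached an unadjusted p under 0.05 in limma either. The class median was 0.31, 0.06 and 0.09, and at 6 h it was -0.03 after quantile normalization and -0.05 with the arrays scaled to one median, where 1 member rose. Kmt5c, which methylates histone H4 in heterochromatin, was called higher at 3 and 6 h and not at 12 h. Its step from 6 to 12 h was not called (-0.46 ± 0.17, limma adjusted p = 0.15). Kmt5c read 186.8 and 213.5 at 0 h, 337.7 and 365 at 3 h, 316.6 and 284.5 at 6 h, and 226.8 and 206.2 at 12 h. The arrays at 3 and 6 h were above both 0 h arrays and those at 12 h overlapped with them. The rises were 0.79 ± 0.17 at 3 h (limma adjusted p = 0.00924) and 0.57 ± 0.17 at 6 h (0.0256), and the change at 12 h was 0.11 ± 0.17 (0.655). The 6 h call of Kmt5c was lost after quantile normalization (0.077), with the arrays scaled to one median (0.067) and with no filter (0.0566). Its 3 h call did not hold when replicate 1 of 0 h or replicate 2 of 3 h was left out (0.0883 and 0.0758), nor the 6 h call without either 0 h array or replicate 1 at 6 h (0.0576 to 0.164).

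Kmt2e, a SET domain gene related to the trithorax family, was the member called in both directions. It read 773.3 and 924.6 at 0 h, 1263.3 and 1229.3 at 3 h, 904.6 and 906.4 at 6 h, and 575.9 and 546.2 at 12 h. Both 3 h arrays were above, and both 12 h arrays below, all others. Kmt2e rose by 0.56 ± 0.12 at 3 h (limma adjusted p = 0.0111) and was lower by 12 h (-0.59 ± 0.12, adjusted p = 0.0023). The early call did not hold when replicate 1 of 0 h or any 3 h array was left out (0.0589 to 0.142), whereas the late fall passed under each alternative run, and the second probe set gave 0.22 and -1.55. Kmt2a, the founding MLL gene, had a change of -0.48 ± 0.20 at 12 h (adjusted p = 0.0779) from 323 and 299.1 to 198.1 and 247.1. Its second probe set changed by -0.82, and the mean of both was called lower (-0.65, adjusted p = 0.0236).

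Setd4 rose at 6 and 12 h and Setd6 at 12 h. Setd4 read 60.7 and 80.4 at 0 h, 115.7 and 128.9 at 3 h, 141.6 and 157.5 at 6 h, and 147 and 172.4 at 12 h, with all treated arrays above both 0 h arrays. Its change was 0.74 ± 0.26 at 3 h, which was not called (limma adjusted p = 0.085), and its step from 6 to 12 h was 0.09. It rose by 1.01 ± 0.26 at 6 h (limma adjusted p = 0.0113) and 1.10 ± 0.26 at 12 h (0.00445). Its 6 h call did not hold when replicate 1 of 0 h or replicate 2 of 6 h was left out (0.0928 and 0.0568), and the mean over its 3 probe sets gave 0.85 at 12 h (0.057). Setd6, whose product methylates the RelA subunit of NF-kB, read 327.9 and 305.7 at 0 h, 461.3 and 335 at 3 h, 455.8 and 428.4 at 6 h, and 749.2 and 436.4 at 12 h. Its rise of 0.84 ± 0.22 at 12 h (adjusted p = 0.00905) rested on the higher array, since it was 0.45 (0.128) without replicate 1 at 12 h, and it was 0.79 (0.0622) without replicate 2 at 0 h. Kmt5b was called higher at 6 h (0.44 ± 0.14, adjusted p = 0.0367), a call lost without either 0 h array or replicate 1 at 6 h (0.116 to 0.167). With all arrays kept, the Kmt5b call was also lost after quantile normalization (limma adjusted p = 0.104) and with arrays scaled to one median (0.128). It was lost too with no filter (0.0533) and without the intensity trend (0.0579). The mean over its 4 probe sets was 0.04 at 6 h. The probe sets not used changed by -0.23, -0.09 and 0.03 at 6 h and by -0.88, 0.37 and 0.31 at 12 h.

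All 13 demethylases were tested, and more rose than fell at each time: 2 rose at 3 h, 3 at 6 h and 4 at 12 h, against 0, 0 and 1 that fell, beside the same shares of all genes. No fall at 3 or 6 h reached an unadjusted p under 0.05 in limma. Their median change was 0.35, 0.36 and 0.24, against 0.06, 0.07 and 0.06 for all genes, and with the arrays scaled to one median it was 0.22, 0.24 and 0.23, with 1, 2 and 4 rises. Kdm4c, which removes methyl groups from repressive marks on histone H3, read 177.8 and 177.7 at 0 h, 240 and 216.6 at 3 h, 348.5 and 313.7 at 6 h, and 366.5 and 503.6 at 12 h. Each pair of arrays was above both arrays of the time before. Kdm4c rose by 0.87 ± 0.18 at 6 h (limma adjusted p = 0.00393) and 1.24 ± 0.18 at 12 h (0.000176), and both calls passed under each alternative run.

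Kdm5d, a Y-linked demethylase of active promoter marks, was near the low end of the signals. It read 67.3 and 57.1 at 0 h, 119.7 and 165.6 at 3 h, 135.9 and 147.4 at 6 h, and 115.3 and 193.8 at 12 h. All treated arrays were above both 0 h arrays, and the rises were 1.09 ± 0.30, 1.10 ± 0.30 and 1.17 ± 0.30 (limma adjusted p = 0.0311, 0.0159 and 0.00726). With the mean of its probe sets Kdm5d was called at no time (0.52, 1.03 and 0.81, limma adjusted p = 0.437, 0.0719 and 0.124). Quantile normalization also lost the 3 h call (0.0696). The 3 h call was lost without any 1 of the 0 h and 3 h arrays (0.0602 to 0.211), the 6 h call without replicate 2 at 0 h or at 6 h (0.094 and 0.0648), and the 12 h call without replicate 2 at 0 h or at 12 h (0.0507 and 0.0914). Its paralog Kdm5b rose by 0.54 ± 0.16 at 12 h (0.0174), which was lost without either 0 h array or replicate 2 at 12 h (0.0525 to 0.133). The mean over the probe sets of Kdm5b gave 0.40 at 12 h and was not called (limma adjusted p = 0.111). Kdm5c and Kdm5a had changes of 0.24 and 0.50 at 12 h that were not called.

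Kdm7a, a demethylase of repressive marks, read 78.1 and 76 at 0 h, 134.9 and 126.6 at 3 h, 89.7 and 182.9 at 6 h, and 154.2 and 163.8 at 12 h. The 6 h arrays were far apart, and only the 12 h rise of 0.97 ± 0.31 was called (limma adjusted p = 0.0236). It was lost without any 1 of the 0 h and 12 h arrays (0.0708 to 0.0933). Kdm3a, a demethylase induced by hypoxia in other cells, rose by 0.51 ± 0.13 at 3 h (0.0261) from 1063.7 and 1044.6 to 1395.2 and 1612. That call was lost without any 1 of the 0 h and 3 h arrays (0.053 to 0.19) and with arrays scaled to one median (0.0888). Kdm1a, the gene of the amine oxidase LSD1, rose by 0.36 ± 0.10 at 6 h (0.0197) from 1822.3 and 1804.2 to 2282.3 and 2367.5. It was lost with the same rescaling (0.115) and without either 0 h array or replicate 2 at 6 h (0.0594 to 0.112).

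Kdm6a, the X-linked demethylase that removes the Polycomb mark, was the demethylase that fell. It read 301.3 and 317 at 0 h, 231.7 and 295.5 at 3 h, 269.4 and 189.7 at 6 h, and 143.2 and 214.4 at 12 h. All treated arrays were below both 0 h arrays. The fall of 0.79 ± 0.23 at 12 h (limma adjusted p = 0.016) was lost without either 0 h array (0.0627 and 0.0885) and was 0.51 (0.153) without replicate 1 at 12 h.

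**Figure D3:**
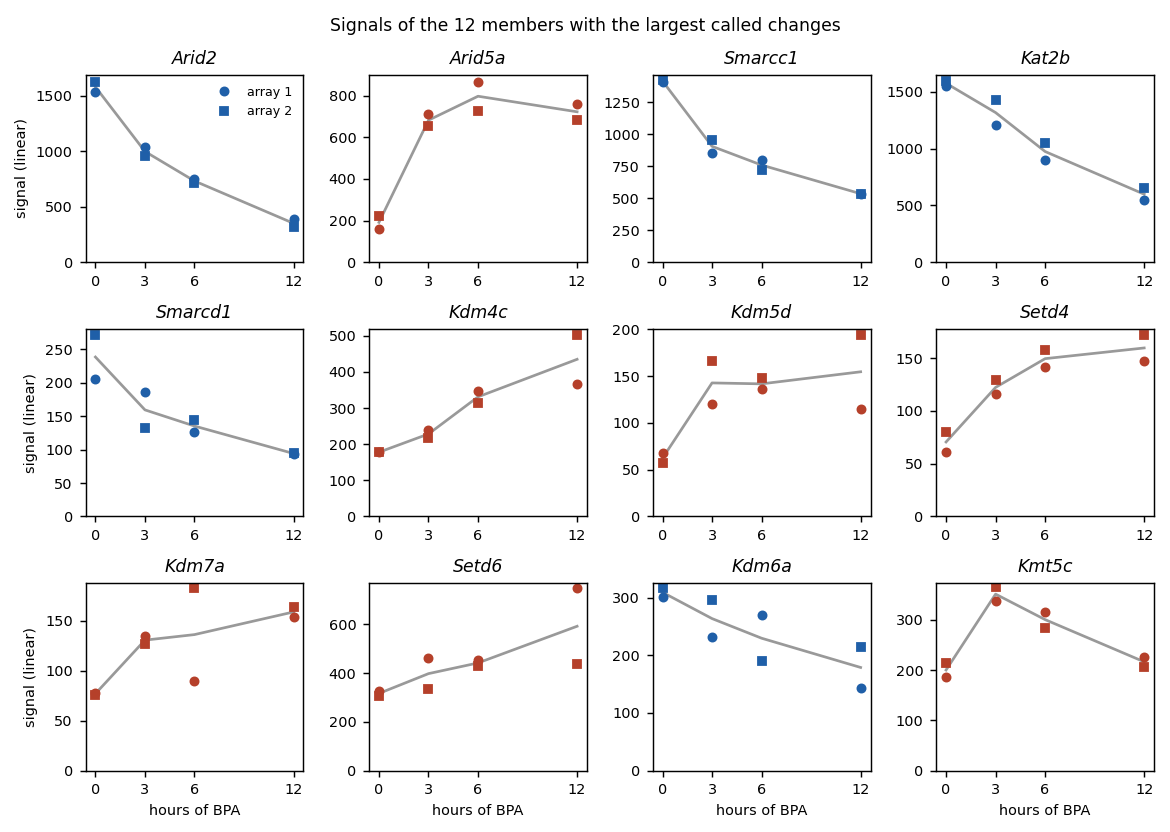
Deposited signal (linear y axis from 0) against hours of BPA (x axis) for the 12 members with the largest called changes. Circles and squares are the arrays numbered 1 and 2 at each time, the grey line joins their means, and colour gives the sign of the change at 12 h (blue lower, red higher). Arid2 goes from 1578 to 350.4 and Arid5a from 191.6 to 722.2 in mean signal between 0 and 12 h.

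Of the 5 acetylases, all tested, Kat2b alone was called, at 6 and 12 h, when 26.5% and 38.4% of all genes were. Kat2b encodes PCAF, a coactivator acetyltransferase of the SAGA-type complexes. It read 1551.1 and 1599.3 at 0 h, 1209.6 and 1425 at 3 h, 900 and 1049.4 at 6 h, and 544.6 and 653.2 at 12 h. Each pair of arrays was below both arrays of the time before. Kat2b had a change of -0.26 ± 0.14 at 3 h (limma adjusted p = 0.25), fell by 0.69 ± 0.14 at 6 h (0.00229) and by 1.39 ± 0.14 at 12 h (5.69e-06). The step from 6 to 12 h was -0.70 ± 0.14 (0.0113; 0.104 without replicate 1 at 12 h). Its probe set can bind several transcripts, and a second one changed by -0.69 at 12 h. Its paralog Kat2a had changes of -0.12, -0.09 and -0.16, with arrays that overlapped at every time, and no change of Kat6a, Kat6b or Kat7 was called. Their largest change was 0.27, that of Kat6a at 6 h.

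Of 7 deacetylases tested, Hdac6 was called, at 12 h, and none was called at 3 or 6 h (0 at an unadjusted p under 0.05 in limma at both times). Of all genes 12.1%, 26.5% and 38.4% were called at 3, 6 and 12 h. Hdac6, a cytoplasmic deacetylase of tubulin, fell by 0.44 ± 0.12 at 12 h (limma adjusted p = 0.0108) from 1070.9 and 1126.8 to 771.1 and 849.7. It was not called when replicate 2 of 0 h or replicate 1 of 12 h was left out (0.0845 and 0.0812). The class I enzymes, catalytic subunits of SIN3, NuRD and NCoR complexes, were not called: at 12 h Hdac1 had -0.12 ± 0.11 (adjusted p = 0.413), Hdac2 0.01 ± 0.15 (0.975) and Hdac3 0.23 ± 0.13 (0.208). Hdac1 read 2575.6 and 2856.3 at 0 h and 2571.6 and 2407.5 at 12 h. Hdac2 read 892.2 and 659.9 at 0 h and 726 and 819.5 at 12 h, with arrays that overlap, and the sign of its change turned with the scaling (-0.025 after quantile normalization). Hdac3 read 1136 and 1213.6 at 0 h and 1462.2 and 1290.5 at 12 h. Hdac7 had changes of 0.37 at 3 h and -0.44 at 12 h, called by the F test (0.0254) and not at any single time.

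Probe sets of one gene can read different ends or forms of its transcripts. Of the 21 members called at 12 h, 15 had another probe set with a mean signal above 47.6. In 11 of these all such probe sets had the sign of the call, and in 4 at least 1 did not: Arid4b, Smarcad1, Smarcd2 and Smarce1. When the probe sets of each gene were averaged, 13 members were called at 12 h in place of 21.

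**Figure D4:**
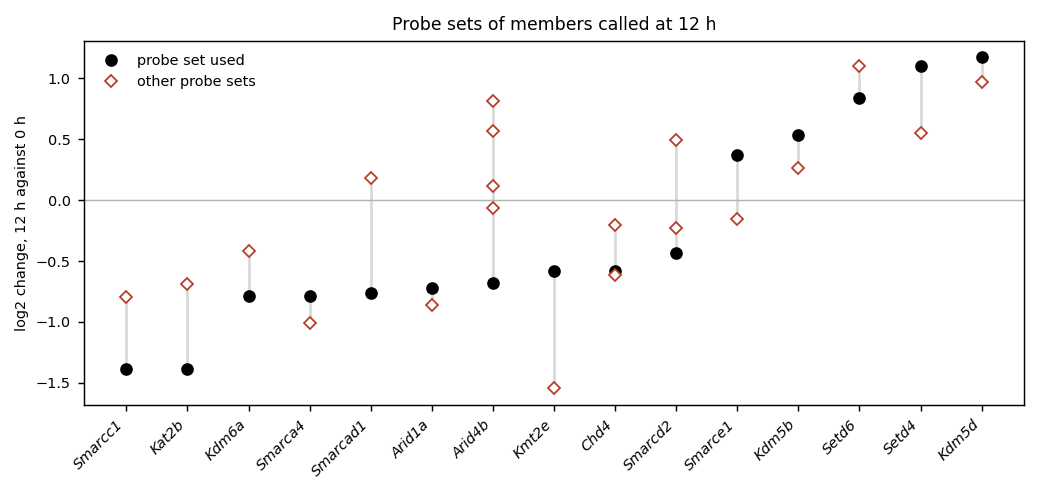
Log2 change at 12 h against 0 h (y axis) for each probe set above a mean signal of 47.6 in the 15 members called at 12 h that have more than 1 (x axis). Black circles are the probe sets used and open diamonds the others; Arid4b spans -0.68 to 0.82, while both probe sets of Smarcc1, Kat2b, Smarca4, Arid1a and Kmt2e lie below 0.

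A wider list of chromatin genes outside these symbol series had 105 genes tested of 110 on the array. Of them 11 rose and 1 fell at 3 h, 22 and 7 at 6 h, and 21 and 17 at 12 h. These are 11.4%, 27.6% and 36.2% called, again beside 12.1%, 26.5% and 38.4% of all genes. The 6 with the largest called changes were Jarid2, Sirt1, Sirt3, Ncoa2, Men1 and Bcl7b. Jarid2, which recruits Polycomb repressive complexes, read 205.5 and 172.6 at 0 h and 44.1 and 34.7 at 12 h, and fell by 2.06 ± 0.32 (limma adjusted p = 0.000251). Sirt1, the NAD-dependent deacetylase gene, read 424.9 and 592.3 at 0 h, 541.7 and 922.1 at 3 h, 1268.9 and 1379.1 at 6 h, and 1527.2 and 1905.4 at 12 h.

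The Sirt1 arrays at 6 and 12 h were above all earlier ones, and it rose by 1.38 ± 0.22 at 6 h (limma adjusted p = 0.000486) and 1.75 ± 0.22 at 12 h (4.07e-05). Sirt3, the mitochondrial sirtuin gene, rose by 1.34 ± 0.25 at 12 h (0.000952). Men1, a subunit of MLL methyltransferase complexes, fell by 0.72 ± 0.16 at 6 h (0.00467) and 1.17 ± 0.16 at 12 h (7.98e-05). Ncoa2, a nuclear receptor coactivator gene, was called at 6 h alone (1.30 ± 0.44, 0.0445), and that call was lost without either 0 h array, either 3 h array or replicate 1 at 6 h (0.0597 to 0.282). With all arrays kept, the Ncoa2 call was also lost after quantile normalization (limma adjusted p = 0.0746) and with arrays scaled to one median (0.062). No filter (0.0859) and a fit of only the groups compared (0.0535) lost it too. The calls of Jarid2, Sirt1, Sirt3 and Men1 at 12 h passed under each alternative run.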

How the data were processed

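Affymetrix 430A signals of 8 arrays, 2 at each of 0, 3, 6 and 12 h of BPA, were used as deposited; groups and array numbers come from the sample titles. The deposited intensity values are linear probe set signals, scaled by the authors to a common mean of 500.2 after trimming 2% at each end, as the values show. The software behind them is not given in the sources used here. Neither detection calls nor scanner files were used here, and so no gene is called present or absent.

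Signals were analysed as log2(signal + 7.9), with the 10th percentile of all values as offset. This understates changes of low genes. Of 22690 probe sets, 20380 had 1 symbol, 691 several, 1555 none, and 64 controls were left out. Symbols were checked through Entrez identifiers against RefSeq genes of GRCm38.p6 (20351 matched). Genes above the 30th percentile of mean log2 signal were tested (8675 of 12393). limma 3.58.1 in R 4.3.3 fitted 1 mean per time over all 8 arrays (eBayes with an intensity trend; 4 residual and 9.00 prior degrees of freedom), with two-sided tests and Benjamini-Hochberg adjustment over all genes; the code was tested on simulated data. Errors of changes are SE from this model; the number of arrays limits the precision. Members and lists were chosen with earlier results of these data known. The rule for named genes took the 12 members with the largest called change and arrays that do not overlap with 0 h, 12 members whatever their result, and the 6 largest called changes of the wider list; other called members, and Kat2a, Kat6a, Kat6b, Kat7, Hdac7, Arid5b, Kdm5a, Kdm5c, Smarca2 and Smarcd3 beside them, and Dpf2, Ss18 and Pbrm1, were named after their values were seen. Alternatives were 2 normalizations, 2 offsets, 2 filters, no trend, a replicate block, the mean of all probe sets, fits restricted to the groups compared, annotated symbols, and leaving out each array. Probe sets ending in _s_at, which can bind several transcripts, read Kat2b, Kdm1a, Hdac3 and Jarid2.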

Additional observations from a re-analysis of the deposited data

Results flagged for a closer look

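Kmt2e was called higher at 3 h and lower at 12 h against 0 h. The 3 h rise was not called with the mean of all probe sets (limma adjusted p = 0.0616). The change from 3 to 12 h was not tested directly. Its step from 3 to 6 h was -0.46 and was not called (0.103), and its step from 6 to 12 h was -0.68 (0.00768). The latter was not called without the intensity trend (0.0653) and passed under the other alternatives run.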

How the results depend on the processing

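Of 46 called changes of members, 15 kept their call and direction under every alternative run, 31 lost the call under 1 or more, and 1 of these reversed. The 15 were those of Arid5a at 3, 6 and 12 h, of Arid2, Kat2b, Kdm4c and Smarcc1 at 6 and 12 h, of Arid1a, Kmt2e and Smarca4 at 12 h, and the step of Arid2 from 6 to 12 h. The reversed one was Arid4b at 12 h, at 0.15 with the mean of all probe sets; the uncalled change of Hdac2 at 12 h was -0.025 after quantile normalization, -0.00208 with arrays scaled to one median, and between -0.21 and 0.22 with each array left out. The count of members called at 12 h was 13 with the mean of all probe sets. That of the step from 6 to 12 h (6) was 3 with arrays scaled to one median, 1 without the trend, 3 with only the groups compared and 3 with the mean of all probe sets. Leaving out each array gave 2 to 8 members called at 3 h, 6 to 13 at 6 h, 14 to 22 at 12 h, 2 to 6 for the step from 6 to 12 h (2 without replicate 1 at 12 h) and 16 to 25 by the F test; the cause was not tested beyond the smaller number of arrays.

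The titles number the arrays of a time but do not say whether a number pairs samples across times. Differences between arrays 1 and 2 correlated between times at -0.011 to 0.12 over 6 pairs of times. A low correlation over all genes tested cannot show that the samples are unpaired. With the replicate number as a block, 8, 13 and 24 members were called at 3, 6 and 12 h, 10 for the step from 6 to 12 h and 25 by the F test, and no called change of a member was lost. Over all genes, the trend moved the 3 h count most among the settings with all arrays, from 1048 to 611 without it. The steps from 3 to 6 h (97) and from 6 to 12 h (414) gave 56 and 274 without a filter, 6 and 114 without the trend, 61 and 173 with only the groups compared, and 226 and 703 with the block. With arrays left out the 3 h and 6 h counts went as low as 453 and 1377. Symbols as annotated changed no count. Without detection calls, changes of members near the filter, such as Kdm5d and Setd4, rest on low signals.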
